A study of Mus musculus with 24 samples.

Results

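The 9 genes described here encode the transcription factors by which helper T cell lineages are usually recognised: Tbx21 and Eomes, Gata3, Rora, Bcl6, Foxp3 and Ikzf2, Prdm1 and Maf. They were taken by symbol, through the mouse GENCODE annotation of GRCm38, from a table of 46981 genes, and all 9 had a row. The table covers 24 RNA libraries of mouse CD4 T cells in 8 groups of 3. In the Acly cohort, knockout (KO) cells came from mice labelled CD4-Cre Aclyfl/fl, in which Cre driven by the Cd4 promoter acts during T cell development on floxed copies of Acly, the ATP citrate lyase that makes acetyl-CoA outside the mitochondria. In the Pdha1 cohort, KO cells came from mice labelled Pdha1fl/fl CD4CreERT2, in which a tamoxifen-dependent Cre is aimed at Pdha1, the E1 alpha subunit of mitochondrial pyruvate dehydrogenase; the labels give no schedule for its induction. Each cohort had its own group labelled wild type (WT), with no Cre or floxed allele named in its label. Cells were resting, with no treatment named, or activated through CD3 and CD28 for 24 h, in medium with 15% serum and 2 mM glutamine. The age of the mice is not in the labels, and neither are pooling of animals, or cytokines that steer a lineage.

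T-bet (the product of Tbx21) directs the Th1 fate of interferon gamma producers, GATA3 the Th2 fate and Foxp3 the regulatory fate, while Bcl6 directs follicular helper cells and is opposed by Blimp-1, the product of Prdm1. RORα, encoded by Rora, acts with RORγt in Th17 cells, c-Maf serves several lineages as a driver of interleukins, Helios (Ikzf2) marks many regulatory cells, and Eomes, a relative of T-bet, is best known from cytotoxic and memory cells. In naive cells these genes are mostly silent or low, and signals from the T cell receptor through NFAT and AP-1, together with cytokine signals through STAT proteins, set which of them is turned on.

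RefSeq promoter sequences (GRCm38.p6, 250 bases before to 50 after a transcript start, 300 in all) were found for 7 of the 9 genes, and those of the 5 genes that passed the test of activation in KO cells of the Acly cohort are printed here, 5′ to 3′ on the gene's strand. Capitals mark the core of the NFAT site, GGAAA, or its reverse complement TTTCC. The windows are chr11:97115282-97115581 on the minus strand for Tbx21, chrX:7579426-7579725 on the plus strand for the first of the 2 Foxp3 entries, chr2:9878551-9878850 on the minus strand for Gata3, chr9:118477939-118478238 on the plus strand for Eomes, and chr9:68653536-68653835 on the plus strand for Rora.
Tbx21: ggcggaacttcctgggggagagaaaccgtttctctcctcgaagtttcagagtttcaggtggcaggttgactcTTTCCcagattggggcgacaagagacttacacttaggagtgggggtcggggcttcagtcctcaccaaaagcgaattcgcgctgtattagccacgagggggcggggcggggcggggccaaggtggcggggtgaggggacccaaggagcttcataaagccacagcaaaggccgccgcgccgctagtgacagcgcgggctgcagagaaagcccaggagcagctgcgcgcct
Foxp3: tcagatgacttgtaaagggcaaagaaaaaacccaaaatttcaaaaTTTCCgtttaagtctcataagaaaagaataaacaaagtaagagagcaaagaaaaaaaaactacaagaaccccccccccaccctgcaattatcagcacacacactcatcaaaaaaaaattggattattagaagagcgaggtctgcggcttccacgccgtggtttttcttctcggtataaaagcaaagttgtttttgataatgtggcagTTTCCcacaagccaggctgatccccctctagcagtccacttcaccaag
Gata3: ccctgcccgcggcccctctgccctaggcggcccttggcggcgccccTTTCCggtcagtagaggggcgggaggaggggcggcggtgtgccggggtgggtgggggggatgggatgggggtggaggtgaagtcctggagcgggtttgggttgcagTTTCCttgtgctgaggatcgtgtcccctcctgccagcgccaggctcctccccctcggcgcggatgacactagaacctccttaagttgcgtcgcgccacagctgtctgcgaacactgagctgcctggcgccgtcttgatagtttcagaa
Eomes: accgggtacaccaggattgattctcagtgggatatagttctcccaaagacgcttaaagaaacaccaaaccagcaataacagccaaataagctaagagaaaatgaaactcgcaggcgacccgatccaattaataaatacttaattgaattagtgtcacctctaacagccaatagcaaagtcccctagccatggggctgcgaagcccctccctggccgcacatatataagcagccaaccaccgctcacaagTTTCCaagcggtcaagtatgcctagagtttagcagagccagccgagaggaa
Rora: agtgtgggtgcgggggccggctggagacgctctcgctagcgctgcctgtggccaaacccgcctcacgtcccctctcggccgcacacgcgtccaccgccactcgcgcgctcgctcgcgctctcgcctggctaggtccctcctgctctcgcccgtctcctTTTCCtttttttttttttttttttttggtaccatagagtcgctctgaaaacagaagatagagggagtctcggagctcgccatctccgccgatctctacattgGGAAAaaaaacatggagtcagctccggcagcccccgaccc
The NFAT core occurred 1 time in the windows of Tbx21 and Eomes and 2 times in those of Foxp3, Gata3 and Rora, so genes that rose and a gene that fell both held it. It is a short motif that 61.3% of all 32851 mouse promoter windows of this length contain on either strand. The AP-1 motif TGANTCA, present in 7.81% of windows, was in none of the 5. Neither was the STAT motif TTCNNNGAA (8.30%). The second Foxp3 entry, chrX:7580233-7580532, which is not printed, had 1 match to the NFAT core and 1 to the STAT motif, and none to the AP-1 motif. The Foxp3 window had 40.7% G and C bases and 6 CpG dinucleotides, against a median of 52.7% and 7 over all windows. The Rora window had 28 CpG dinucleotides, more than 85.8% of windows. A match of letters is a description of the window and not evidence of a bound site.

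The values are RPM, reads scaled to the same total of 1000000 per library, and each could be traced back to a whole number of counts: the libraries held 388902 to 1087675 counts, and 1 count was worth 0.677 to 2.28 RPM. A count of 0 therefore allows up to 3 counts, or 2.03 to 6.83 RPM depending on the library. Libraries also differed in background. Summed over 1450 protein-coding genes for olfactory and vomeronasal receptors, families foreign to T cells, the level was 95039 to 109181 RPM in resting and 30009 to 40831 RPM in activated libraries of the Acly cohort. In the Pdha1 cohort the library labelled KO resting 3 had a low level for its group, 66035 RPM against 103128 RPM or more in the other 5 resting libraries, and the library labelled WT activated 3 had a high level, 105016 RPM against 26265 and 71983 RPM in WT activated 1 and 2. The targeted transcript went with the label in activated Acly cells, at 104 to 111 RPM in WT and 10.6 to 15.0 RPM in KO. Pdha1 did not separate its genotypes: activated WT libraries stood at 84.7, 40.8 and 5.35 RPM and activated KO at 30.4, 27.4 and 20.0 RPM, and KO resting 3 (25.9 RPM) was above every WT resting library. Cd4 had group means of 84.2 to 266 RPM in the Acly and 48.9 to 86.8 RPM in the Pdha1 cohort. Its lowest library in the Pdha1 cohort, a resting KO library, had 23.7 RPM. Genes of CD4 T cell identity summed to 200 to 1399 RPM in resting Pdha1 and 484 to 989 RPM in resting Acly libraries. The 1399 RPM was that of KO resting 3. The other 5 resting Pdha1 libraries had 200 to 482 RPM, below every resting Acly library. Hemoglobin and platelet genes summed to 599 to 32768 RPM in the Pdha1 cohort against 21.2 to 1204 RPM in the Acly cohort. Results of the Pdha1 cohort are given with all libraries, and some of them also without the 2 libraries that stand apart.

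**Figure D1:**
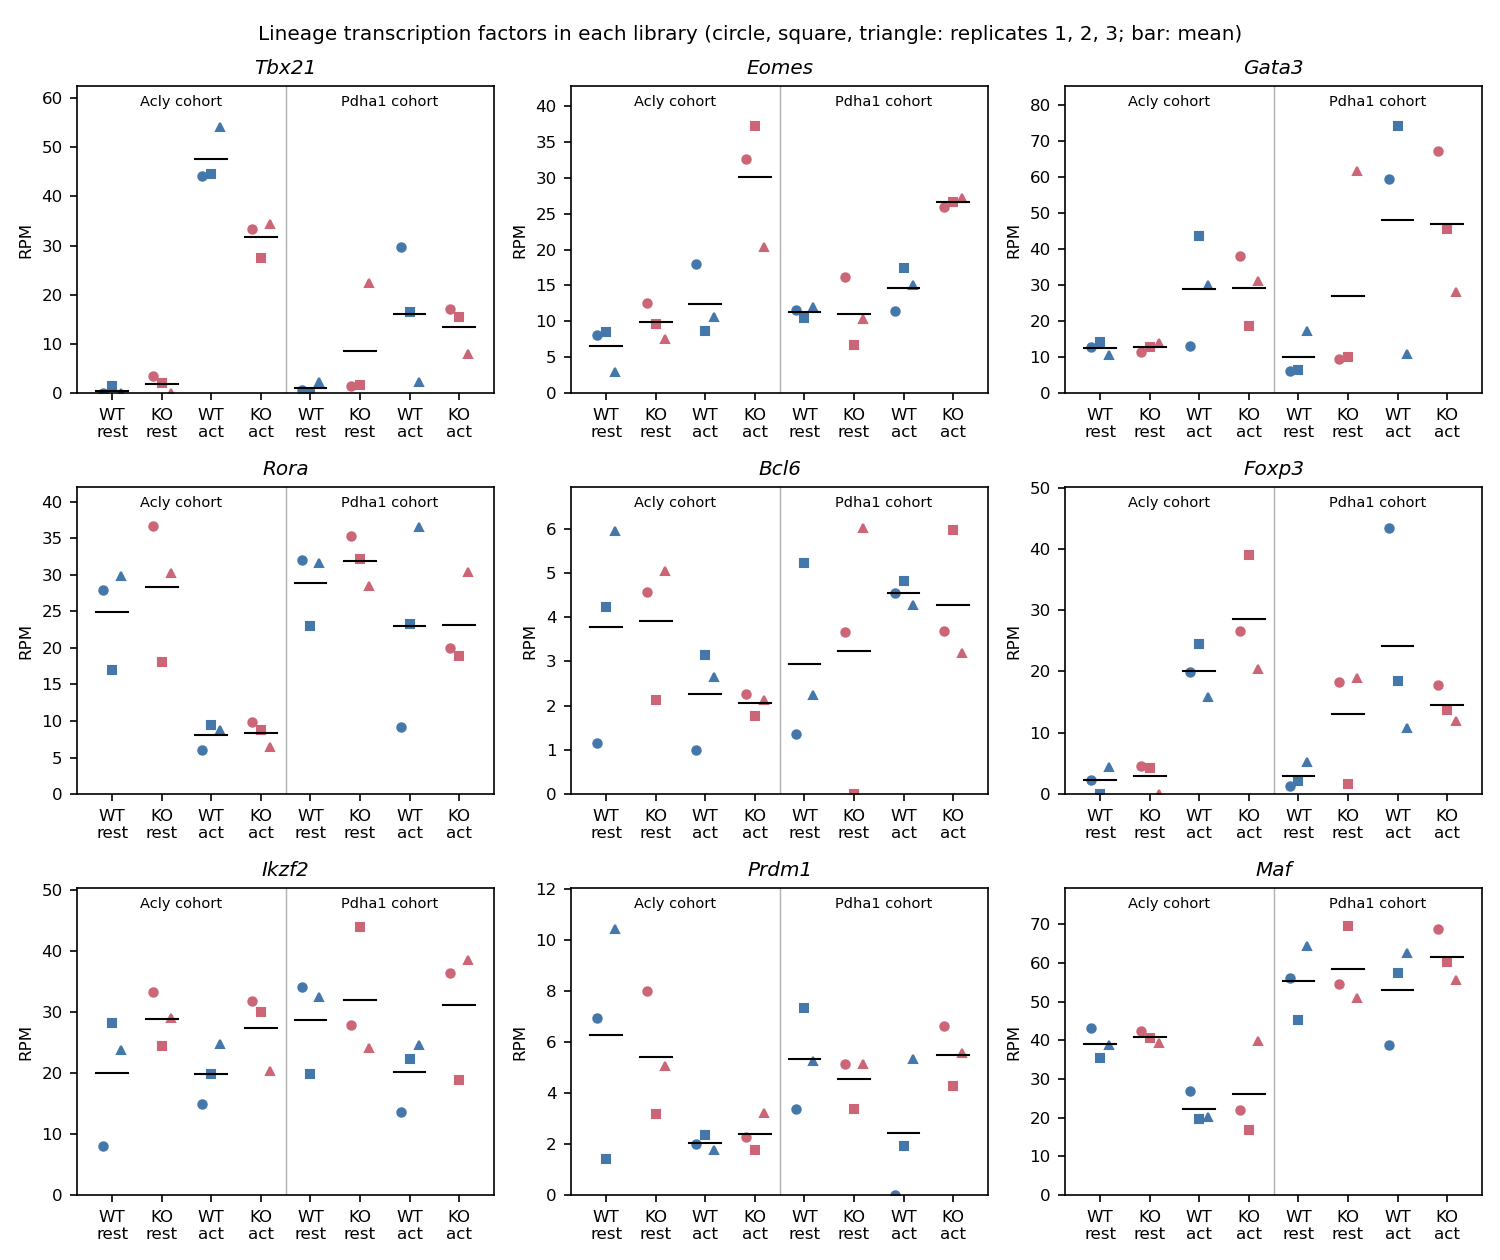
Level of each of the 9 genes (vertical axis, RPM from 0) in all 24 libraries, with the groups of the Acly cohort on the left and of the Pdha1 cohort on the right of each panel; points are libraries (circle, square and triangle for replicates 1, 2 and 3; blue WT, red KO) and bars are means of 3. In the Acly cohort Tbx21 and Foxp3 are near 0 at rest and high after activation, Rora is lower after activation, and Bcl6 and Prdm1 stay at or below 10.4 RPM everywhere.

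Activation of the Acly cohort was the comparison with the clearest separation. Of the 9 factors, 5 passed the test in WT cells (limma, adjusted p under 0.05 over 31311 genes), 3 of them higher (Tbx21, Foxp3, Gata3) and 2 lower (Rora, Maf). In KO cells 5 passed as well, 4 higher (Tbx21, Foxp3, Eomes, Gata3) and 1 lower (Rora). Activation changed much of the table: 45.2% of all genes passed in WT cells (21.4% higher, 23.8% lower) and 47.4% in KO cells (20.7% higher, 26.7% lower), so a count of 5 of 9 is near the background. Groups of activated and resting libraries that did not overlap were found for 5 of 9 factors in each genotype, beside 51.9% of all genes in WT and 55.8% in KO cells. The median log2 change of the 9 was 0.13 in WT and −0.09 in KO cells, against −0.61 and −0.67 over all genes. That overall median moved to −0.29 in WT and −0.39 in KO cells when libraries were rescaled in the manner of TMM, and genes that passed in WT cells then split into 7813 higher of 12376, where without rescaling 6700 of 14147 were higher.

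Tbx21 (ENSMUSG00000001444, chr11:97098071-97115331, minus strand, GRCm38) went from levels within the floor to a strong signal. At rest, libraries 1 to 3 of the Acly cohort had 0, 1.41 and 0 RPM (WT) and 3.43, 2.13 and 0 RPM (KO). After activation they had 44.1, 44.5 and 54.1 RPM (WT) and 33.4, 27.4 and 34.3 RPM (KO). All activated libraries were far above all resting ones, which were within the floor of 3 counts. Its log2 change was 5.94 ± 0.61 (standard error) in WT cells (limma, adjusted p = 1.5e-10) and 4.21 ± 0.61 in KO cells (adjusted p = 3.5e-07). Pooled over the 3 libraries, 161 counts against 1 gave an activated to resting ratio of 106 in WT, with a 95% exact interval of 18.8 to 4214 that covers counting error only, and 107 counts against 5 gave 16.4 (6.83 to 51.7) in KO. Relative to the median of all genes, the log2 change was 6.55 in WT and 4.89 in KO cells.

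Foxp3 (ENSMUSG00000039521, chrX:7573644-7595245, plus strand) rose from levels at the floor to a clear signal. At rest, WT libraries had 2.32, 0 and 4.47 RPM and KO libraries 4.57, 4.26 and 0 RPM. After activation, WT libraries had 20.0, 24.5 and 15.9 RPM and KO libraries 26.5, 39.0 and 20.4 RPM. No activated library overlapped a resting one. On the log2 scale Foxp3 changed by 3.41 ± 0.85 in WT (adjusted p = 0.0038) and 3.62 ± 0.85 in KO cells (adjusted p = 0.0024, limma). Because some resting values are 0, a pseudocount of 0.1 in place of 0.5 widened the spread and gave adjusted p-values of 0.076 and 0.063 with larger changes of 4.27 and 4.45. Pooled counts of 69 against 5 in WT gave a ratio of 9.09 (95% exact interval 3.71 to 28.9), and 98 against 8 in KO gave 9.41 (4.59 to 22.4). In bulk RNA, more regulatory cells and more Foxp3 RNA per cell cannot be told apart, and the same holds for every gene here. Other genes of the regulatory cell list summed to 106 to 162 RPM at rest and 442 to 555 RPM after activation in the Acly cohort.

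Gata3 (ENSMUSG00000015619, chr2:9857078-9890034, minus strand) rose by a smaller factor. Resting libraries were close together, at 12.8, 14.1 and 10.4 RPM in WT and 11.4, 12.8 and 13.9 RPM in KO. In the median resting library, Gata3 was above 64.1% (WT) and 62.3% (KO) of the receptor genes. In the median activated library it was above 88.8% and 89.1% of them. How much of the resting level is background was not tested. Activated libraries were spread, at 13.0, 43.7 and 30.0 RPM in WT and 38.0, 18.6 and 31.1 RPM in KO. WT activated 1 lay among the resting libraries, whereas all 3 KO activated libraries lay above them. The log2 change was 1.03 ± 0.39 in WT (adjusted p = 0.028) and 1.12 ± 0.39 in KO (adjusted p = 0.017, limma). Both calls depended on single libraries: leaving out WT activated 2 gave 0.66 (adjusted p = 0.23), leaving out WT activated 3 gave 0.93 (0.086) and WT resting 3 gave 0.92 (0.076), while in KO cells leaving out activated 1, activated 3 or resting 1 gave adjusted p-values of 0.11, 0.053 and 0.053.

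Eomes (ENSMUSG00000032446, chr9:118478212-118486132, plus strand) passed the test in KO cells. Resting levels were 8.12, 8.46 and 2.98 RPM in WT and 12.6, 9.58 and 7.57 RPM in KO. These were above 55.6% (WT) and 58.1% (KO) of the receptor genes in the median library, against 79.1% and 92.1% after activation. The part of background in the resting level of Eomes was not tested. Activated levels were 18.0, 8.69 and 10.6 RPM in WT; KO libraries had 32.6, 37.2 and 20.4 RPM. In both genotypes the activated libraries were above the resting ones of the same genotype, in WT narrowly, at 8.69 RPM for the lowest activated and 8.46 RPM for the highest resting library. Eomes changed by 1.54 ± 0.44 in KO (adjusted p = 0.0038) and 0.94 ± 0.44 in WT (adjusted p = 0.076, limma). WT cells passed under TMM-style scaling (1.36, adjusted p = 0.015), with a block for the replicate number (adjusted p = 0.044) and by edgeR on the recovered counts (1.35, adjusted p = 0.0082).

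Rora (ENSMUSG00000032238, chr9:68653786-69388246, plus strand, spanning 734 kb) was lower after activation. Resting libraries held 27.9, 16.9 and 29.8 RPM (WT) or 36.7, 18.1 and 30.3 RPM (KO). Activated libraries held 5.98, 9.48 and 8.81 RPM (WT) or 9.83, 8.82 and 6.42 RPM (KO). The groups did not overlap. Its log2 change was −1.55 ± 0.39 in WT (adjusted p = 0.0014) and −1.67 ± 0.39 in KO cells (adjusted p = 6e-04, limma). The summed receptor background changed by −1.56 and −1.64 in the same comparisons, so that the change of Rora relative to it was 0.01 and −0.03. Per 1000 RPM of receptor background, Rora stood at 0.238 to 0.356 RPM in the means of all 8 groups, a span of 1.5 times, where Maf spanned 2.52 times and Gata3 11.9 times. Rora also kept its place among the 1450 receptor genes: its level was above 72.8% to 78.2% of them in the median library of each group. Whether its reads come from Rora transcripts or from the same source as the receptor reads was not tested.

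Maf (ENSMUSG00000055435, chr8:115682942-115707794, minus strand) also passed as lower in WT cells. The resting levels were 43.1, 35.3 and 38.8 RPM (WT) and 42.4, 40.6 and 39.2 RPM (KO). After activation they were 27.0, 19.8 and 20.3 RPM (WT) and 22.0, 16.8 and 39.7 RPM (KO). WT groups did not overlap, but KO activated 3 lay within the resting range. The log2 change was −0.80 ± 0.32 in WT (adjusted p = 0.038) and −0.72 ± 0.32 in KO (adjusted p = 0.059, limma), which relative to the median of all genes is −0.19 and −0.05. The WT call was lost under TMM-style scaling (−0.34, adjusted p = 0.39) and by edgeR (−0.31, adjusted p = 0.41), and without WT activated 2, WT activated 3, WT resting 1 or WT resting 3 (adjusted p of 0.11, 0.090, 0.096 and 0.056). In KO cells Maf passed under 5 of 23 alternatives: with the replicate block (adjusted p = 0.035), quantile normalization (0.0062) or a filter of 5 RPM (0.039), and without KO activated 3 (0.011) or WT resting 3 (0.043). Against the receptor background Maf was higher after activation, with 0.656 against 0.387 RPM per 1000 RPM in WT and 0.733 against 0.380 in KO group means.

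**Figure D2:**
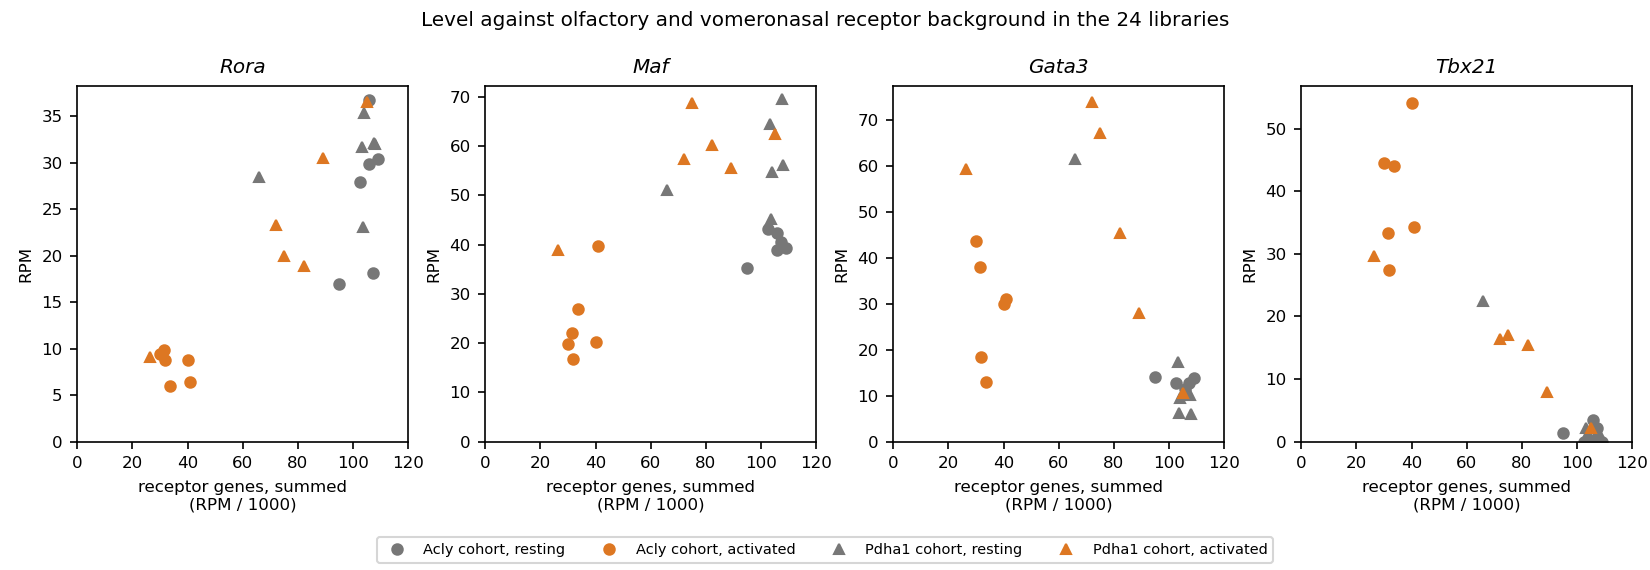
Level of Rora, Maf, Gata3 and Tbx21 (vertical axes, RPM) against the summed level of 1450 olfactory and vomeronasal receptor genes (horizontal axes, in units of 1000 RPM) in the 24 libraries; grey is resting, orange activated, circles the Acly and triangles the Pdha1 cohort. Rora is low where the receptor sum is low in activated Acly cells and in WT activated 1 of the Pdha1 cohort, but not in KO resting 3 of the Pdha1 cohort (28.5 RPM at a sum of 66035 RPM), and the orange triangle among the resting libraries of the Gata3 and Tbx21 panels is the library labelled WT activated 3 of the Pdha1 cohort.

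The other 3 factors did not pass in either genotype. Ikzf2 (ENSMUSG00000025997, chr1:69531214-69687245, minus strand) was at 8.12 to 28.2 RPM in resting WT, 24.5 to 33.2 in resting KO, 15.0 to 24.7 in activated WT and 20.4 to 31.9 RPM in activated KO libraries, and all these ranges overlap. Its log2 change was 0.13 ± 0.37 in WT and −0.09 ± 0.37 in KO cells (adjusted p of 0.79 and 0.86), a sign that turned in KO cells under TMM-style scaling (0.42) and edgeR (0.50) and in WT cells under quantile normalization (−0.05). A gene on the same strand inside an Ikzf2 intron, Gm28112, had a mean of 57.3 RPM, and how reads were shared between them is not given in the sources used here.

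Bcl6 (ENSMUSG00000022508, chr16:23965052-23988852, minus strand) was at 0 to 6.02 RPM and Prdm1 (ENSMUSG00000038151, chr10:44437177-44528501, minus strand) at 0 to 10.4 RPM over all 24 libraries. Each rests on 7 to 21 counts per group of 3 libraries, so this opposed pair could be measured only coarsely. In the Acly cohort Bcl6 changed by −0.52 ± 0.69 in WT and −0.72 ± 0.69 in KO cells on activation, and Prdm1 by −1.09 ± 0.67 and −0.97 ± 0.67 (limma, adjusted p from 0.18 to 0.55). Neither passed with all libraries in the fit. Prdm1 passed when WT resting 2 was left out (−1.84, adjusted p = 0.024).

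**Figure D3:**
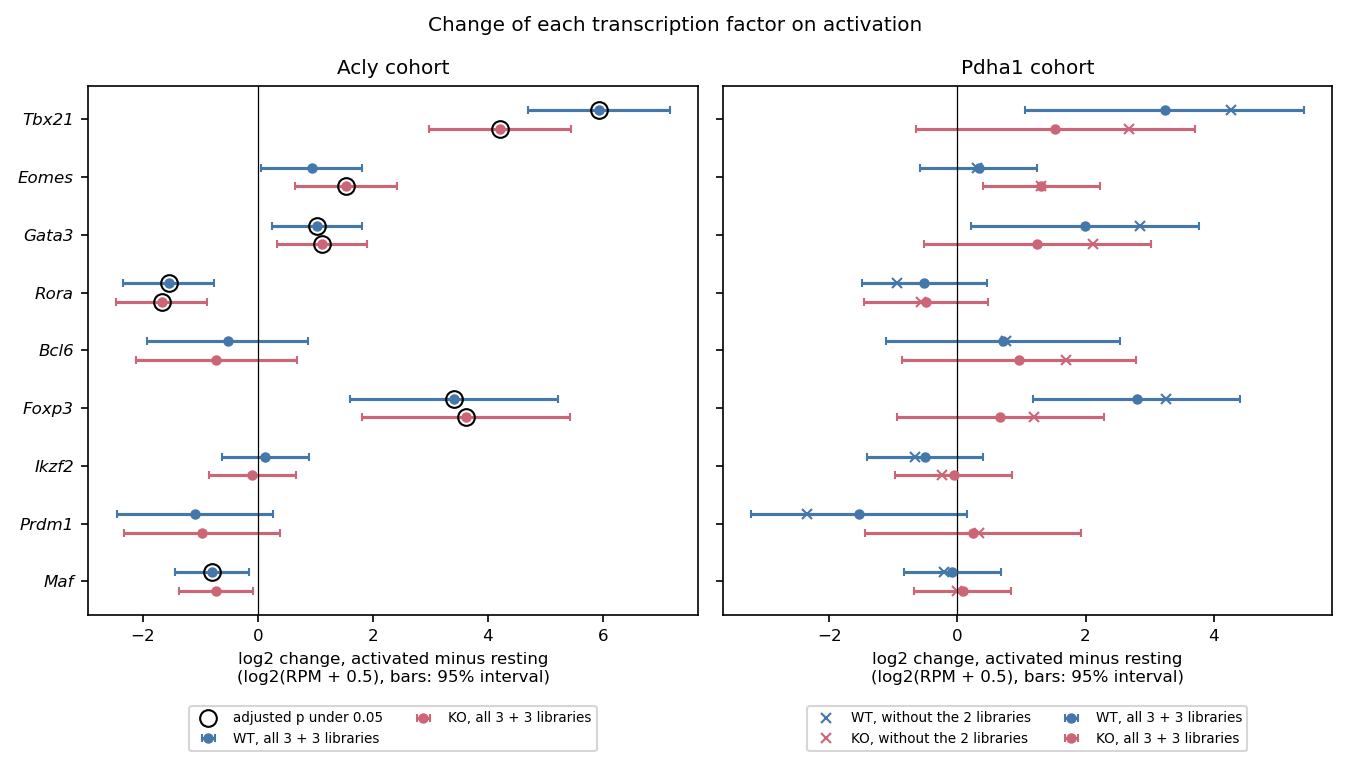
Log2 change of each gene on activation (horizontal axis, on log2(RPM + 0.5), activated minus resting) with its 95% interval, for WT (blue) and KO (red) cells of the Acly cohort (left) and the Pdha1 cohort (right); black rings mark an adjusted p under 0.05 and crosses are the Pdha1 values without the 2 libraries that stand apart. Tbx21 and Foxp3 have the highest values in the Acly cohort, and no Pdha1 point is ringed with all libraries in the fit.

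In the Pdha1 cohort, with all libraries as labelled, limma called none of the 9 factors on activation in WT or KO cells, and none of 30357 genes (percent called 0). At an unadjusted p under 0.05 there were 3 of the 9 in WT (Tbx21, Gata3, Foxp3) and 1 in KO cells (Eomes), and edgeR also called none. Over all 30357 genes, 4315 had such a p in WT and 873 in KO cells. With evenly spread p-values 1518 would be expected. In KO cells the activated and resting libraries did not overlap for 1 factor, Eomes (25.9 to 27.2 against 6.75 to 16.1 RPM), and for 8% of all genes. The levels by library show where the spread lay. Tbx21 was at 0.677, 0 and 2.25 RPM in resting WT and 29.7, 16.4 and 2.14 RPM in activated WT libraries, so that WT activated 3 had a resting level. In KO cells Tbx21 was at 1.46, 1.69 and 22.4 RPM at rest and 17.0, 15.4 and 7.98 RPM after activation, so that KO resting 3 had the highest of the 6 values.

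Gata3 had the same arrangement of libraries. WT libraries had 6.10, 6.27 and 17.3 RPM at rest and 59.4, 74.1 and 10.7 RPM after activation, and KO libraries had 9.53, 10.1 and 61.5 RPM at rest and 67.2, 45.6 and 28.0 RPM after activation. WT activated 3 again fell among the resting libraries and KO resting 3 among the activated ones, in which the receptor background was also out of place for the label. Foxp3 was at 1.35, 2.09 and 5.26 RPM in resting WT and 43.4, 18.4 and 10.7 RPM in activated WT libraries, which did not overlap, as 16.2% of all genes did not in this comparison. The resting KO libraries had Foxp3 at 18.4, 1.69 and 18.9 RPM, against 17.8, 13.7 and 12 RPM in activated KO cells, so that KO resting 1, which had a resting level of background and of Tbx21, was nearly as high as KO resting 3.

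Without KO resting 3 and WT activated 3, an alternative chosen after the data were seen, 4 factors passed in WT cells: Tbx21 (4.27, adjusted p = 4.6e-04), Gata3 (2.85, adjusted p = 2.9e-04), Foxp3 (3.25, adjusted p = 0.0056) and, lower, Prdm1 (−2.34, adjusted p = 0.031). In KO cells 2 passed, Gata3 (2.11, adjusted p = 0.0083) and Tbx21 (2.68, adjusted p = 0.032). Over all genes 7825 and 2075 then passed. WT activated 1 was the shallowest library and had a low background, and without it as well 2 factors passed in WT (Tbx21 at 3.85 and Gata3 at 3.01) and 3 in KO cells (Tbx21, Gata3 and Eomes at 1.30). That last fit leaves WT activated 2 alone in its group and assumes that it varies like the others. Since the libraries were left out for how they looked, these values only describe the libraries that remain.

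By group mean in RPM, Maf was higher in the Pdha1 (52.9 to 61.5) than in the Acly cohort (22.4 to 40.8), a difference that was not tested. Single libraries overlapped: Pdha1 WT activated 1 had 38.8 RPM, against 35.3 to 43.1 RPM in resting Acly WT. Per 1000 RPM of receptor background the group means overlapped too, at 0.527 to 0.957 RPM in the Pdha1 and 0.380 to 0.733 RPM in the Acly cohort. In the Pdha1 cohort Maf did not differ with activation beyond the spread, with log2 changes of −0.08 ± 0.36 in WT and 0.08 ± 0.36 in KO cells. The hemoglobin and platelet sum also differed between the cohorts, and mice, handling and cohort cannot be told apart here. Rora levels in WT were 32.0, 23.0 and 31.7 RPM at rest and 9.11, 23.2 and 36.5 RPM after activation, and in KO 35.3, 32.1 and 28.5 RPM at rest and 20.0, 18.8 and 30.4 RPM after activation. In activated WT the 3 libraries had the same order in Rora as in receptor background; in activated KO, the library highest in background was the highest in Rora. Ikzf2 (13.7 to 44.0 RPM), Bcl6 and Prdm1 had overlapping ranges in all 4 groups of the cohort.

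The rise of Tbx21 in WT cells was larger in the Acly than in the Pdha1 cohort by 2.70 ± 1.29 on the log2 scale, which did not pass in the fit of all 24 libraries (unadjusted p = 0.046, adjusted p = 0.60, limma). No other factor reached an unadjusted p under 0.05 in that comparison, and 16 of 35290 genes (percent called 0.0453) passed. Over all genes 2901 had an unadjusted p under 0.05 there, where 1764 would be expected with evenly spread p-values. Without WT activated 3 of the Pdha1 cohort the difference of Tbx21 was 1.67. Ranked by group mean, Tbx21 ran from activated Acly WT (47.6 ± 5.66 RPM, SD, n = 3) through activated Acly KO (31.7 ± 3.75), activated Pdha1 WT (16.1 ± 13.8) and KO (13.5 ± 4.82), and resting Pdha1 KO (8.52 ± 12) to the other resting groups at 0.470 to 1.85 RPM. Among the 7 pairs of neighbours in that order, only the first had ranges that did not overlap and a gap beyond the sum of the SDs. For Eomes that held only for activated Pdha1 KO (26.6 ± 0.644 RPM) over activated Pdha1 WT (14.6 ± 3.03), and for the other 7 genes it held for no neighbours.

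Libraries labelled KO were compared with WT of the same cohort at rest and after activation. With limma none of the 9 factors passed in any of these 4 comparisons, nor in the interaction of genotype and activation of either cohort, nor in the difference between the Acly effect and the Pdha1 effect in activated cells. Few genes of the table did: 2 of 31311 in activated Acly cells (percent called 0.00639) and 0 in the rest. At an unadjusted p under 0.05 there was 1 factor in activated Acly cells (Eomes), 1 in resting Pdha1 cells (Foxp3), and 0 in the other 2 contrasts, both interactions and the difference of effects. Over all genes, 1087 of 31311 had such a p in activated Acly cells and 636 of 30357 in resting Pdha1 cells. These numbers are below the 1566 and 1518 expected with evenly spread p-values. By edgeR 1 factor was called, Eomes in activated Acly cells, and none in the other 6. Foxp3 in resting Pdha1 cells was higher in KO, at 18.4, 1.69 and 18.9 RPM against 1.35, 2.09 and 5.26 RPM in WT. The last KO value is that of KO resting 3, which stands apart.

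Eomes was the factor with the clearest difference between genotypes. In activated cells of the Acly cohort all 3 KO libraries (20.4 to 37.2 RPM) were above all 3 WT libraries (8.69 to 18.0 RPM), with means of 30.1 ± 8.71 and 12.4 ± 4.91 RPM (SD, n = 3). The log2 change was 1.26 ± 0.44, with a 95% interval of 0.38 to 2.15 (limma, unadjusted p = 0.0060, adjusted p = 1.00). A fit of those 2 groups alone gave an adjusted p of 0.075, and edgeR on the recovered counts, 104 in KO and 41 in WT, gave 1.42 with an adjusted p of 0.019, where it called 16 genes in all. The value ranged from 1.05 to 1.55 when single libraries were left out, and KO was above WT in each.

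Activated cells of the Pdha1 cohort gave a value in the same direction. Eomes was at 25.9, 26.6 and 27.2 RPM in KO and 11.4, 17.4 and 15.0 RPM in WT libraries, so that here too every KO library was above every WT library. The log2 change was 0.86 ± 0.43 (95% interval −0.05 to 1.77, unadjusted p = 0.063, adjusted p = 1.00, limma), and 0.89 (adjusted p = 0.30) without the 2 libraries that stand apart. Groups that do not overlap in this way, KO above WT, were found for 3.56% of genes in the Acly and 3.99% in the Pdha1 cohort. Per 1000 RPM of receptor background, however, the activated genotypes overlapped in both cohorts. In the Pdha1 cohort Eomes then stood at 0.306 to 0.345 RPM in KO and 0.143 to 0.434 RPM in WT. In the Acly cohort it stood at 0.498 to 1.16 RPM in KO and 0.263 to 0.534 RPM in WT. The summed receptor background was itself higher in activated Pdha1 KO than WT libraries, by 0.49 on the log2 scale. The change of Eomes relative to it was 0.37. In activated Acly cells the receptor background differed between genotypes by 0.004, and the change of Eomes relative to it was 1.26. The Acly effect on Eomes minus the Pdha1 effect was 0.40 ± 0.65, with an interval of −0.91 to 1.71, which leaves room for a difference in either direction. At rest Eomes had overlapping genotypes in both cohorts, with a log2 change of 0.66 ± 0.44 for KO against WT in the Acly cohort. The interaction in that cohort was 0.60 ± 0.62 (adjusted p = 1.00), so a larger difference after activation than at rest was not shown.

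Eomes is also expressed by CD8 and natural killer cells, whose 10 markers were therefore set beside it. They summed to 36.3 to 51.4 RPM in activated KO and 33.5 to 40.9 RPM in activated WT libraries of the Acly cohort, and to 53.9 to 69.5 and 62.8 to 84.4 RPM in the Pdha1 cohort. None of the markers tested passed between genotypes in activated cells of either cohort. In the Acly cohort 5 of the 9 tested had a positive log2 change of KO against WT: Cd8b1 had means of 12 RPM in KO and 8.16 RPM in WT and Klrk1 of 6.30 and 3.82 RPM, but Cd8a had 1.34 and 1.72 RPM and Klrd1 0.294 and 0.626 RPM. Ncr1, which defines natural killer cells, was at 0 in all 3 activated KO libraries of that cohort, and Cd8a was at 0 to 2.27 RPM there. Their part in the difference of Eomes was not tested.

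Tbx21 differed in the other direction in activated Acly cells. All KO libraries (27.4 to 34.3 RPM) were below all WT libraries (44.1 to 54.1 RPM), as 7.38% of genes were, with a log2 change of −0.58 ± 0.61 (95% interval −1.81 to 0.65, adjusted p = 1.00, limma). Together with Eomes this makes 2 of 9 factors with groups that do not overlap, beside 10.9% of all genes. The standard error of Tbx21 is shared by all 4 groups of the cohort, so it also holds the spread of resting libraries within the floor. It does not measure the activated libraries alone, whose SDs were 5.66 RPM in WT and 3.75 RPM in KO. Tbx21 did not pass here under any of 23 alternatives, which include a fit of the 2 activated groups alone. At rest the change was 1.14 ± 0.61, on 5 counts in KO and 1 in WT, and the interaction was −1.72 ± 0.86 (unadjusted p = 0.052, adjusted p = 1.00). That interaction rests on resting levels within the floor. In the Pdha1 cohort the activated genotypes overlapped, with 0.27 ± 1.03 for all libraries and −0.76 without the 2 libraries that stand apart, and edgeR gave −0.12.

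**Figure D4:**
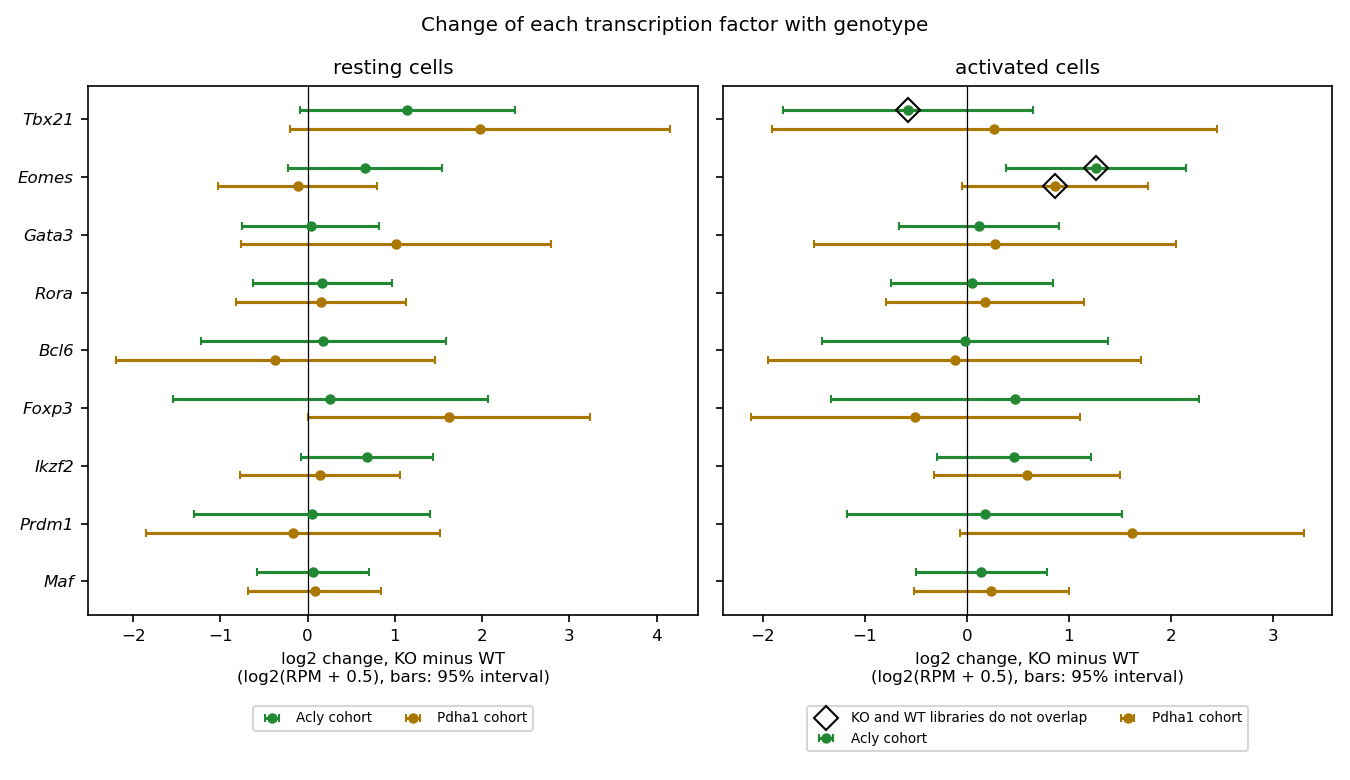
Log2 change of each gene with genotype (horizontal axis, on log2(RPM + 0.5), KO minus WT) with its 95% interval in resting (left) and activated cells (right) of the Acly (green) and Pdha1 cohorts (amber); diamonds mark genes whose 3 KO and 3 WT libraries do not overlap. The 3 diamonds are Tbx21 and Eomes in activated Acly cells and Eomes in activated Pdha1 cells, and none of the 9 passed the adjusted limma test.

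The remaining 7 factors had KO and WT libraries that overlapped in all 4 comparisons, and at rest all 9 did; 7.07% of genes in resting Acly, 7.46% in resting Pdha1 and 5.73% in activated Pdha1 cells did not overlap. Over all 9 factors the log2 changes of KO against WT ran from 0.04 to 1.14 in resting and −0.58 to 1.26 in activated Acly cells, and from −0.37 to 1.97 in resting and −0.51 to 1.62 in activated Pdha1 cells. The medians were 0.18, 0.14, 0.14 and 0.27 in that order, against 0.02, −0.05, 0.04 and 0.26 over all genes. The 95% intervals reached from −1.54 to 2.37 in resting and −1.81 to 2.27 in activated Acly cells. In the latter both ends came from Tbx21 and Foxp3, while the interval was −0.67 to 0.90 for Gata3, −0.75 to 0.84 for Rora and −0.50 to 0.79 for Maf. Tbx21 and Foxp3 were within or at the floor at rest, and their standard errors, shared by all 4 groups, include that spread.

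Cytokines, receptors and signal carriers that accompany these factors were read from lists chosen for the purpose, in activated against resting WT cells of the Acly cohort, where 21.4% of all genes passed as higher and 23.8% as lower. Of the Th1 list, 2 of 8 tested genes were higher and 1 lower: Ifng, the interferon that T-bet turns on, rose by 6.57 ± 0.59 (adjusted p = 2.8e-12), Cxcr3, a chemokine receptor of Th1 cells, rose by 2.35 ± 0.87, and Il18r1, the interleukin 18 receptor, fell by 1.51. Of the Th2 list, 4 of 7 were higher and 1 lower, with Il4ra, the interleukin 4 receptor, at 4.0 ± 0.31, Stat6, which carries its signal, at 2.14 ± 0.34, the cytokine Il13 at 3.95 ± 0.75, and Il1rl1, the interleukin 33 receptor, at −1.22 ± 0.45. Of the Th17 list, 1 of 6 was higher (Stat3 at 1.00 ± 0.27) and 2 were lower (Il17f at −1.84 ± 0.59 and Il23r at −2.11 ± 0.81).

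Of the follicular helper list, 3 of 8 genes were higher (Cd200 at 4.17 ± 0.33, Icos at 3.30 ± 0.27 and Pdcd1 at 4.94 ± 0.60) and 1 lower (Il6ra at −0.89 ± 0.29); these 3 are surface proteins that activated T cells of any lineage carry. Of the regulatory list, 3 of 9 were higher and 2 lower. Tnfrsf18 and Tnfrsf4, receptors of the TNF family, rose by 4.62 ± 0.35 and 5.57 ± 0.43, Il2ra, the interleukin 2 receptor alpha chain, rose by 2.29 ± 0.27, and Ikzf4, which encodes Eos, had −1.06 ± 0.29. The 3 risers are induced by activation as well as found on regulatory cells.

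Among 22 partner transcription factors, 10 were higher and 1 lower. Irf4, which acts with BATF downstream of the T cell receptor, had 6.06 ± 0.32, the largest value of the list, and Gfi1, a repressor tied to Th2 growth, 5.47 ± 0.57, while Foxp1 and Ikzf1 had 2.18 ± 0.25 and 2.16 ± 0.30. Of 19 genes of cytokine signalling, 11 were higher and 3 lower, led by Socs1 (4.84 ± 0.31) and Cish (3.41 ± 0.34), feedback inhibitors of STAT signals, with the kinase Jak2 at 2.71 ± 0.35. All 13 genes of CD4 T cell identity were higher, from a sum of 484 to 989 RPM in resting to 2927 to 3345 RPM in activated WT libraries. Markers of other cells were higher in 1 gene, Nkg7 (4.14 ± 0.71), and lower in 12 of 37 tested over the 5 lists, and the receptor background was lower too.

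Between genotypes, Thy1, a surface protein of T cells, was the single gene of all these lists to pass, in activated Acly cells (−1.28 ± 0.23, adjusted p = 0.033, limma). Among genes close to the lineage factors with small p-values there, Il21 had −2.23 ± 0.84, Cxcr3 −1.70 ± 0.87, Ccl5 1.45 ± 0.75 and Il10 1.41 ± 0.78, all with adjusted p = 1.00. In activated Pdha1 cells Cxcr5 had −2.04 ± 0.92, Cxcr3 −1.86 ± 1.04, Ccr8 1.74 ± 0.81 and Entpd1 1.89 ± 0.91, again with adjusted p = 1.00.

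For each factor with a group mean of at least 10 RPM, the genes with the most similar pattern over the 8 group means were sought among 11022 genes, by the root mean square (rms) difference of centred log2 levels. Rora lay nearest to Fam208a (rms 0.0576) and next to Vmn2r121, a vomeronasal receptor (0.0621). Tbx21 lay nearest to the pseudogene Rps12-ps11 (0.249) and to Uqcrb, a subunit of respiratory complex III (0.249), Gata3 to Ikzf3, which encodes Aiolos (0.205), and Flot1 (0.270), and Foxp3 to Ptger2, a prostaglandin receptor (0.259), and Ptms (0.327). Eomes had less close neighbours, Nfe2l1 (0.317) and the interferon-induced Gbp9 (0.360), while Ikzf2 was near Zzz3 (0.0981) and Mmachc (0.148), and Maf near Mpv17 (0.105) and Usp6nl (0.112). With 8 groups and so many genes, small differences of this kind arise easily, and they are given as a description.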

How the data were processed

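The deposited table holds RPM, which the authors scaled to 1000000 per library; per the labels' protocols, libraries came from total RNA depleted of ribosomal and globin RNA, by a stranded kit, with single-end reads of 75 bp. The submitters' processing notes name GRCm38 and mm10; for aligner, counter and annotation nothing is given in the sources used here. Undoing a collision correction for 4096 identifiers of 6 bases gave whole counts for 100% of values (tolerance 0.01). The labels name no such identifiers, so which part of a transcript was read is unknown, and levels are compared within a gene only.

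Symbols came from GENCODE M21 (46206 of 46981 identifiers matched). Log2(RPM + 0.5) was fitted with limma 3.58.1 in R 4.3.3 (trend, robust), per cohort (12 libraries, 4 groups) or over all 24 for contrasts between cohorts. Genes had to reach 1 RPM in 3 or more libraries of the fit, and p-values were adjusted over all of them by the Benjamini-Hochberg method, with a threshold of 0.05; all 9 factors passed the filter. The scale understates changes of low genes. Values after ± are standard errors or, where said, SDs. Nothing in the labels ties replicates to separate animals; p-values thus measure only how these samples spread, which may be technical. The factors, the 13 companion lists (142 genes), the tests and the alternatives were chosen with earlier results of these data known. From each list, up to 4 genes with the smallest p on activation of Acly WT cells and up to 2 per contrast of activated genotypes could be named, and any gene called between genotypes. Counts were also tested with edgeR 4.0.16, an alternative added later, as were the fits without 2 or 3 Pdha1 libraries. The script was tested on simulated data. Same-numbered activated KO and WT libraries of the Pdha1 cohort deviated together (correlations of 0.369, 0.120 and 0.517), so the numbers may pair samples there. For replicate 2 a library of another number correlated more (0.143). In each other comparison at least 1 pair had a correlation below 0.1, the limit used for pairing. That limit does not settle pairing in the Acly cohort. On activation of its WT cells, same-numbered libraries had correlations of 0.09, 0.13 and 0.23. Libraries of other numbers had at most −0.01, 0.08 and −0.12.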

Additional observations from a re-analysis of the deposited data

How the results depend on the processing

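Counts of factors that passed stayed within 1.5 times of the main count under the other settings (4 in Acly WT and 4 in KO cells with a pseudocount of 0.1), with these exceptions. On activation of Acly WT cells (5 factors), 3 passed without trend and robust fitting, 0 with the receptor background as a covariate, and 3 to 7 when single libraries were left out, with 3 without WT activated 2, WT activated 3 or WT resting 3. In Acly KO cells (5 factors) 0 passed with the covariate and 4 to 6 with single libraries left out. The covariate moves with activation itself: only 11 and 1 of all genes then passed. In Pdha1 WT cells (0 factors) 0 to 4 passed with single libraries left out (4 without WT activated 3), 4 without the 2 libraries and 2 without 3; in Pdha1 KO cells 2 and 3 passed. Between genotypes of activated Acly cells edgeR called 1 factor. In the other 7 comparisons 0 passed under every alternative run.

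Among the changes given singly in the text, signs turned as follows; of 1607 values for the remaining member changes, 129 turned too. With the covariate, on activation of Acly WT cells, Eomes was at −1.17, Ikzf2 −0.83, Prdm1 0.98 and Maf 1.24; in Acly KO cells Eomes was at −0.68, Prdm1 1.22 and Maf 1.43; in Pdha1 cells Rora (0.25) and Maf (0.21) turned in WT and Ikzf2 (0.0140) in KO. Ikzf2 also turned in Acly KO cells under TMM-style scaling (0.42) and edgeR (0.50), in Pdha1 KO cells (0.0416 and 0.0921) and under quantile normalization in Acly WT cells (−0.0495). Without the 2 libraries, Maf in Pdha1 KO cells (−0.0094, also without 3), Tbx21 between activated Pdha1 genotypes (−0.76) and Tbx21 in the Acly minus Pdha1 effect (0.19) turned; without 3, Maf in Pdha1 WT cells (0.0693) and Tbx21 between genotypes (−0.35) did, the last also by edgeR (−0.12). With single libraries left out, values that changed sign ranged, on activation, for Ikzf2 from −0.409 to 0.460 (Acly WT), −0.211 to 0.106 (Acly KO) and −0.237 to 0.269 (Pdha1 KO), for Maf from −0.212 to 0.131 (Pdha1 WT) and −0.0094 to 0.212 (Pdha1 KO), for Rora from −0.946 to 0.0273 (Pdha1 WT), and in Pdha1 KO cells for Bcl6 from −0.165 to 1.69 and Foxp3 from −0.373 to 1.20 (both lowest without KO resting 2); Tbx21 ranged from −0.763 to 0.994 between activated Pdha1 genotypes and −1.57 to 0.186 in the Acly minus Pdha1 effect. The cause of these turns was not tested, and none of these changes passed before or after, except that Maf in Acly WT and Eomes in Acly KO cells had passed before.

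A block for the replicate number gave 6 factors in Acly WT (Eomes added), 6 in Acly KO cells (Maf added, adjusted p = 0.035) and 0 elsewhere. Depth limits Bcl6, Prdm1 and the resting levels of Tbx21 and Foxp3 in the Acly cohort and in Pdha1 WT cells. In Pdha1 KO cells it limits Tbx21 in KO resting 1 and 2 (2 and 1 counts) and Foxp3 in KO resting 2 (1 count). Bcl6 and Prdm1 also lay within the range of the receptor background, near its middle or below. At rest, Gata3 and Eomes lay within that range too. In the median library of each resting group, Gata3 was above 48.2% to 64.1% of the receptor genes. Eomes was above 55.6% to 64.7% of them.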
